A study of Homo sapiens with 18 samples.

Results

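The 10 genes described here belong to the transforming growth factor beta (TGF-beta) and bone morphogenetic protein (BMP) pathways and were measured in human osteosarcoma cells taken from tumors in mice. They are the ligands TGFB1, TGFB2, BMP2 and BMP4, the receptors TGFBR1 and TGFBR2, the target genes ID1, ID2 and ID3, and the inhibitory SMAD gene SMAD7. They were chosen by name, as every probe set annotated to exactly 1 of these 10 genes, of 19775 genes with such a probe set on the array. They had 20 of the 41097 probe sets with a single gene, and all 10 genes and 16 of the 20 probe sets passed the filter on dim signals used for testing, which left 14418 genes. Each gene is given by its brightest probe set.

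MNNG/HOS and 143B are osteosarcoma lines that both descend from the HOS line. Cells that expressed the green marker ZsGreen were grown as orthotopic tumors in bone, and the soft tissue part of each tumor was sorted by flow cytometry for the membrane dye PKH26, which is diluted at every division. The submitters call the dye-retaining cells tumor-initiating cells and the dye-diluted cells the bulk tumor cells. MNNG_High (4 arrays) and MNNG_Low (4 arrays) are the retaining and diluted cells of the MNNG/HOS tumors labelled MNNG-1231 to MNNG-1233 and MNNG-1235. 143B_High (3 arrays, 1 of tumor 143B-1253 and 2 that each pooled a pair of tumors, 143B-51&52 and 143B-54&55) and 143B_Low (5 arrays, tumors 143B-1251 to 143B-1255) are the same fractions of 143B. MNNG_Lung (2 arrays) is MNNG/HOS lung metastasis, 1 array from the animal of tumor MNNG-1233 and 1 labelled a mix. About 150000 retaining and 700000 diluted cells were taken from each tumor, and no drug or genetic change other than the marker is named. The sources used here name neither the host strain nor the age of the animals. Each fraction is a single sorted gate, so fewer cells of a type and less RNA per cell cannot be told apart.

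TGF-beta and BMP ligands are secreted dimers that bind paired type I and type II serine/threonine kinase receptors. TGF-beta receptors act mainly through SMAD2 and SMAD3, and BMP receptors through SMAD1, SMAD5 and SMAD9. ID1, ID2 and ID3 encode inhibitors of basic helix-loop-helix transcription factors and are classical BMP target genes, and SMAD7 is induced by the pathway and blocks its receptors. In bone, BMPs drive osteoblast differentiation and TGF-beta is stored in the matrix.

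The promoters of the ID genes are shown because ID1 and ID3 were the target genes that differed between the lines, while ID2 did not pass the test. The sequences are from RefSeq (GRCh38.p14), where 9 of the 10 genes matched an entry, and each is the 250 bases before the gene's start on the gene's strand. ID1 lies at chr20:31605039-31605288 on the plus strand, ID2 at chr2:8681806-8682055 on the plus strand and ID3 at chr1:23559502-23559751 on the minus strand. Capitals mark GTCT and its reverse complement AGAC, the core of the SMAD binding element.
ID1: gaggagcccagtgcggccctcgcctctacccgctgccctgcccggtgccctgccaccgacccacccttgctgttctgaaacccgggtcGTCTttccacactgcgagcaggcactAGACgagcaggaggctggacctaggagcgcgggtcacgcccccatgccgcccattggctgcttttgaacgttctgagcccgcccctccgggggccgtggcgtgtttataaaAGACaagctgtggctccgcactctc
ID2: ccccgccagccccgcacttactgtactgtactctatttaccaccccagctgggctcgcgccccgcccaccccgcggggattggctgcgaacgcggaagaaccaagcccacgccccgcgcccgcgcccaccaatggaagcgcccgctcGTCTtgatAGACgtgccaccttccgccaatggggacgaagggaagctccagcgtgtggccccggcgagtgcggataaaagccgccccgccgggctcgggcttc
ID3: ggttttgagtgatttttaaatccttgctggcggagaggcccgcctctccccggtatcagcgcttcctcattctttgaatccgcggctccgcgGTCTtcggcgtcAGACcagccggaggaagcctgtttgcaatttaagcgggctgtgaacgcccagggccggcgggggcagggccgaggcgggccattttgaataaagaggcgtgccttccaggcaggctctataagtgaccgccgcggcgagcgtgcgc
GTCT on either strand occurred 3 times in the ID1 window and 2 times each in those of ID2 and ID3. It was present in 77.5% of 35116 promoter windows of this length, so its presence does not set these genes apart. The motifs GGCGCC, a GC-rich SMAD1 and SMAD5 site, and CACGTG, an E-box, are each their own reverse complement. Neither was found in these windows, against 16.4% and 6.34% of all windows.

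Arrays of 1 bone group correlated at 0.956 or more over genes, and the 2 lung arrays at 0.865. The lung arrays also had a narrower spread of signals, with an interquartile range of 2.09 to 2.28 on the log2 scale against 2.76 to 3.48 on the bone arrays. Their actin 3' probe set was dimmer than the 5' one, by -2.97 and -2.16 on the log2 scale, where on the bone arrays it was brighter by 0.75 to 2.82. GAPDH did not show this: its 3' probe set was brighter by 0.45 and 0.94 in lung and by 0.34 to 1.04 on the bone arrays. The hybridization controls had mean log2 signals of 13.46 and 14.58 on the lung arrays, above every bone array. These means were 11.58 or more on every MNNG_High array and at most 11.1 in MNNG_Low. MNNG_High arrays had narrower signals (2.76 to 3.18) than MNNG_Low (3.29 to 3.40). The sample descriptions carry 3 tags that look like dates: 1 on 3 of the 4 MNNG_Low arrays, 1 on the other MNNG_Low array and all MNNG_High and lung arrays, and 1 on all 143B arrays, so tag and line cannot be told apart. Markers of bone-forming tumor cells (9 genes) had a mean log2 signal of 9.78 to 10.1 in MNNG_High, 9.90 to 10.1 in MNNG_Low, 8.69 to 9.74 in both 143B fractions and 6.90 to 8.09 in lung. The lung arrays were thus below every bone array in the mean of these markers, but not in each marker. COL1A2 averaged 8.44 in lung, against 7.15 in 143B_High and 6.25 in 143B_Low. ALPL, which did not pass the filter, was highest in lung, with a mean of 6.04. COL1A1 had 6.38 and 11.59 on the lung arrays. Of the 8 markers tested, 5 were lower in lung than in MNNG_Low and 0 higher, at an adjusted p under 0.05 in limma. The labels do not name separate cultures. The main fit treats the fractions of a tumor as separate arrays and takes 1 spread per gene over all groups, lung included. Its p-values thus rest on the spread between tumors and pools within groups, and not on that of the differences within tumors.

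**Figure D1:**
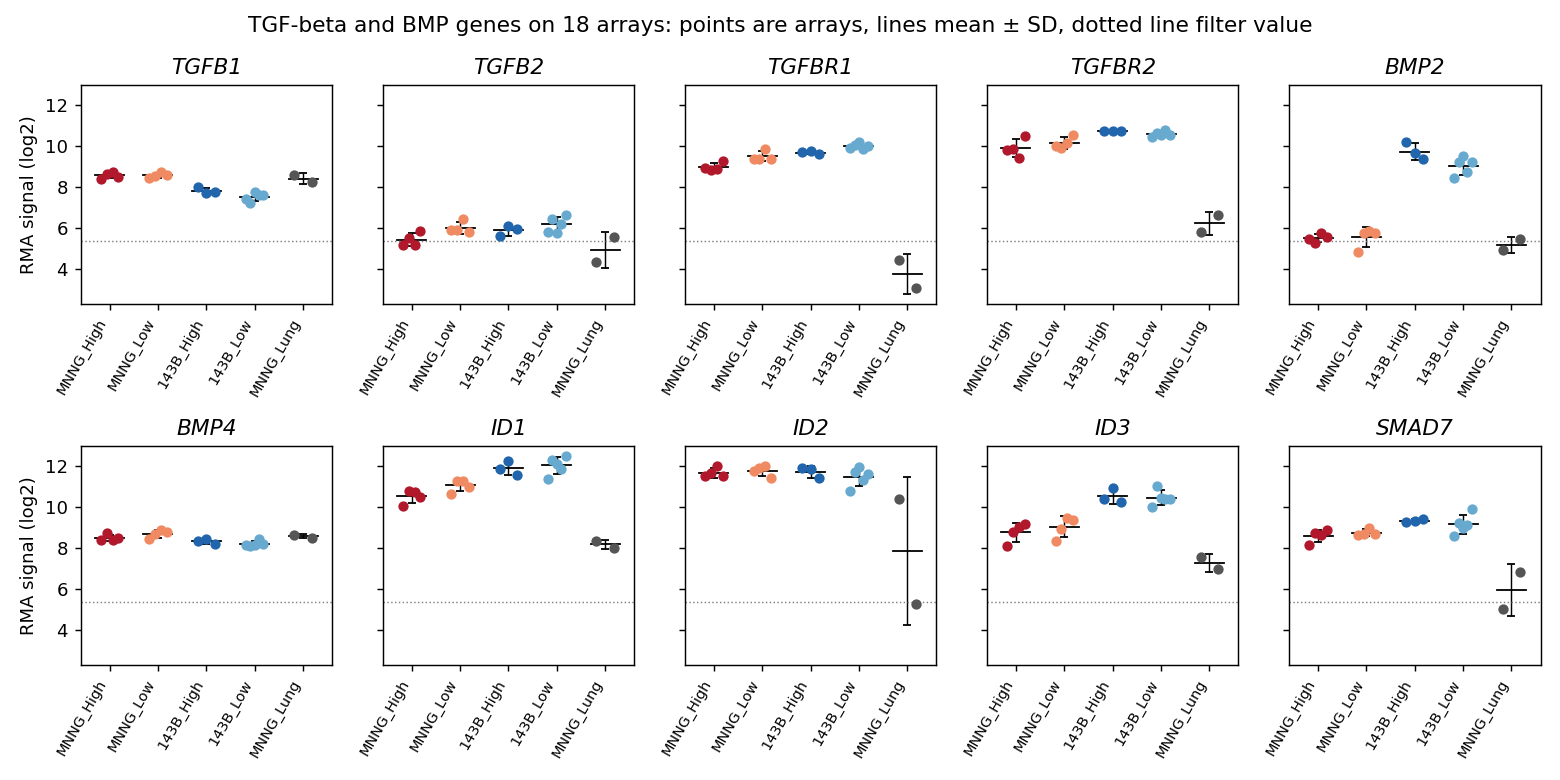
RMA signal (log2 scale, vertical axis) of the 10 genes on each of the 18 arrays, by group; points are arrays, horizontal lines with bars are means ± SD, and the dotted line is the filter value. BMP2, ID1 and ID3 sit higher on every 143B array than on every MNNG/HOS bone array, and 7 genes are lower on the lung arrays than in MNNG_Low.

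The lines differed most in BMP2, a ligand that induces bone. ID1 and ID3 were also higher in 143B than in MNNG/HOS, in both dye fractions, while TGFB1, the main TGF-beta ligand, was lower. Among the diluted cells 5 of the 10 genes passed (3 higher and 2 lower in 143B), where 28.8% of all 14418 genes tested passed, 14.4% higher and 14.5% lower. Among the retaining cells 6 passed (5 higher and 1 lower), against 36.1% of all genes, 21.4% higher and 14.7% lower. The median difference over the 10 genes, 143B minus MNNG/HOS, was 0.42 on the log2 scale in diluted cells and 0.72 in retaining cells, against -0.04 and 0.01 over all genes tested. A call here is an adjusted p under 0.05 in limma.

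BMP2 had log2 signals of 10.19, 9.65 and 9.35 in 143B_High and of 8.44, 9.24, 9.54, 8.75 and 9.22 in 143B_Low. It had 5.48, 5.29, 5.77 and 5.56 in MNNG_High and 4.83, 5.77, 5.88 and 5.79 in MNNG_Low. No 143B array came near an MNNG/HOS array, and the MNNG/HOS values lie around the filter value of 5.36, the median of the whole table. BMP2 rose by 3.47 ± 0.25 (SE) on the log2 scale in the diluted cells, 11.1-fold (adjusted p = 5e-09), and by 4.21 ± 0.28 in the retaining cells, 18.5-fold (adjusted p = 3.75e-09). Whether the MNNG/HOS signal is above background was not tested, and the size of the folds rests on it. The other BMP2 probe set, 205289_at, differed by 3.65 ± 0.30 and 3.87 ± 0.34.

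ID1, an inhibitor of helix-loop-helix factors, had signals of 11.86, 12.24 and 11.55 in 143B_High and of 11.36, 12.29, 12.07, 11.86 and 12.49 in 143B_Low. In MNNG_High it had 10.07, 10.78, 10.72 and 10.50, and in MNNG_Low 10.65, 11.27, 11.26 and 10.99. Every 143B array was above every MNNG/HOS array. ID1 rose by 0.97 ± 0.22 in the diluted cells (1.96-fold, adjusted p = 0.0022) and by 1.37 ± 0.25 in the retaining cells (2.58-fold, adjusted p = 0.000401). Its order of means was lung, MNNG_High, MNNG_Low, 143B_High and 143B_Low, and the 2 fractions of a line did not differ past the threshold.

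ID3, the related inhibitor, had 10.39, 10.94 and 10.22 in 143B_High and 10.01, 11.00, 10.45, 10.41 and 10.36 in 143B_Low. It had 8.10, 8.78, 9.03 and 9.15 in MNNG_High and 8.36, 8.93, 9.47 and 9.38 in MNNG_Low. The 2 lines did not overlap in either fraction. ID3 rose by 1.41 ± 0.26 (2.66-fold, adjusted p = 0.000375) in diluted and by 1.75 ± 0.30 (3.37-fold, adjusted p = 0.000191) in retaining cells. ID2, the third family member here, had group means between 11.46 and 11.76 on the bone arrays, and the line difference was -0.30 ± 0.61 in diluted cells with a 95% interval of -1.57 to 0.97. The 2 lung arrays, which lie far apart for ID2, widen that interval. In the fit without them the difference was -0.30 ± 0.20 in diluted cells (adjusted p = 0.269) and 0.04 ± 0.23 in retaining cells (adjusted p = 0.905). The dimmer probe set 201566_x_at gave -0.42 ± 0.24 in diluted cells with all arrays, and the line difference of ID2 was not tested against those of ID1 and ID3.

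TGFB1 had signals of 8.42, 8.66, 8.74 and 8.51 in MNNG_High and of 8.45, 8.55, 8.73 and 8.57 in MNNG_Low. In 143B_High it had 8.01, 7.70 and 7.75, and in 143B_Low 7.41, 7.25, 7.77, 7.64 and 7.62. All 143B arrays were below all MNNG/HOS bone arrays. TGFB1 fell by 1.04 ± 0.13 in the diluted cells (2.05-fold lower, adjusted p = 7.06e-06) and by 0.76 ± 0.15 in the retaining cells (1.70-fold lower, adjusted p = 0.000753). Its second probe set, 203084_at, gave -0.50 ± 0.17 in diluted cells (adjusted p = 0.0388 over probe sets) and -0.03 ± 0.20 in retaining cells (adjusted p = 0.907), where 27.1% and 32.7% of all probe sets passed, so the call in retaining cells rests on 203085_s_at.

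BMP4, a close relative of BMP2, had 8.42, 8.69, 8.86 and 8.78 in MNNG_Low and 8.16, 8.08, 8.13, 8.43 and 8.21 in 143B_Low. The groups overlap by 1 array on each side, and BMP4 fell by 0.48 ± 0.12 (1.40-fold lower, adjusted p = 0.00518). In retaining cells the difference was -0.16 ± 0.14, which did not pass. BMP4 thus passed in the direction opposite to BMP2.

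TGFBR2, the receptor subunit that binds TGF-beta first, had 10.73, 10.74 and 10.74 in 143B_High and 9.79, 9.87, 9.43 and 10.48 in MNNG_High. The groups do not overlap, and TGFBR2 rose by 0.85 ± 0.22 (1.80-fold, adjusted p = 0.00647). Its dimmer probe set 207334_s_at, near the filter value, differed by 0.14 ± 0.22 (adjusted p = 0.629 over probe sets) with overlapping groups, so the call rests on the brighter one. TGFBR1, the signaling subunit, had 9.70, 9.75 and 9.62 in 143B_High against 8.95, 8.83, 8.90 and 9.27 in MNNG_High. It rose by 0.70 ± 0.23 (1.63-fold, adjusted p = 0.0238), and its dimmer probe set 236561_at by 0.92 ± 0.28 (adjusted p = 0.0189 over probe sets). The TGFBR1 call is close to the threshold: the adjusted p went to 0.0611 and 0.0777 without the 143B_High array of 143B-1253 or of the pool 143B-51&52, and to 0.0518 and 0.0504 without the MNNG_High array of MNNG-1232 or MNNG-1233. After a further quantile normalization, TGFBR1 differed by 0.46 (adjusted p = 0.119) and TGFBR2 by 0.64 (adjusted p = 0.0604). In diluted cells TGFBR1 differed by 0.51 ± 0.20 (adjusted p = 0.0642) and TGFBR2 by 0.44 ± 0.19 (adjusted p = 0.101). Without the lung arrays, which lie far apart for TGFBR1, TGFBR1 in diluted cells passed with an adjusted p of 0.00289, as did 37.2% of all genes.

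SMAD7 had 9.26, 9.32 and 9.42 in 143B_High and 8.17, 8.74, 8.61 and 8.86 in MNNG_High. Its groups do not overlap, and the difference of 0.73 ± 0.32 had an adjusted p of 0.0783, or 0.0138 without the lung arrays, where 47.2% of all genes passed. TGFB2, a second TGF-beta ligand, had group means of 5.45 to 6.19 on the bone arrays, close to the filter value, and its line differences of 0.17 ± 0.24 and 0.46 ± 0.28 did not pass. Groups did not overlap for 5 of the 10 genes in diluted and 7 in retaining cells, where 38.3% and 42% of all genes did not. Beside these differences, 4 of 7 macrophage markers tested were lower and 0 higher in the retaining cells of 143B. Of 8 markers of bone-forming cells tested, 5 were lower and 1 higher in 143B in each fraction. The part of these in the line differences was not tested.

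**Figure D2:**
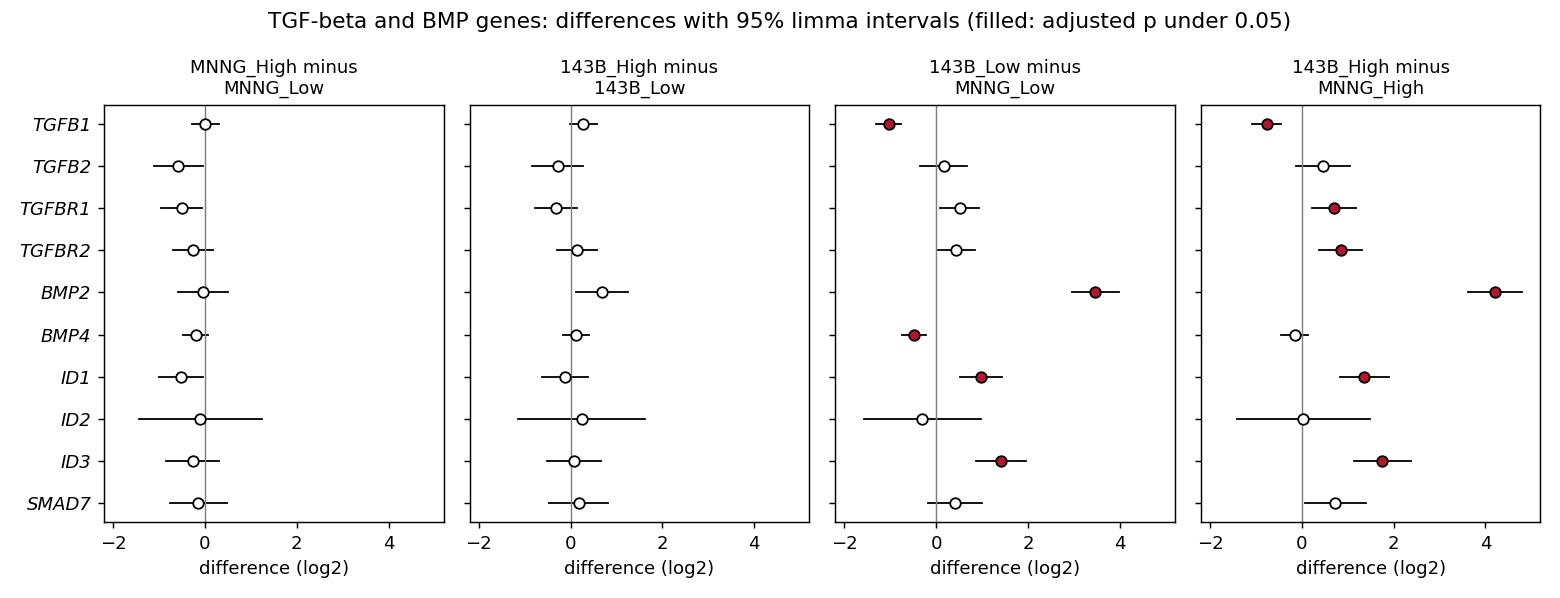
Differences of the 10 genes on the log2 scale (horizontal axis, each with its 95% limma interval) for retaining minus diluted cells in each line and for 143B minus MNNG/HOS in each fraction; filled points passed. None of the 10 genes passed in the first 2 panels, and BMP2, ID1, ID3 and TGFB1 passed in both line panels.

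None of the 10 genes passed between the dye fractions of either line in the fit of all 18 arrays as deposited. In MNNG/HOS, TGFBR1 (-0.62, adjusted p = 0.0385) and ID1 (-0.63, adjusted p = 0.0479) passed after centring each array on its median, and 3 genes were lower in retaining cells in fits without the lung arrays. With the values as deposited no gene of the 10 passed in MNNG/HOS tumors in limma, where 26.1% of all genes did (3761 of 14418), and 3 had an unadjusted p under 0.05, where 43.4% of all genes did. The largest differences were of TGFB2 (-0.58 ± 0.26, adjusted p = 0.0938), ID1 (-0.52 ± 0.23, adjusted p = 0.0924) and TGFBR1 (-0.51 ± 0.21, adjusted p = 0.0771), all lower in the retaining cells. Without the lung arrays the SE of TGFBR1 was 0.13, and TGFBR1 (adjusted p = 0.00748) and TGFB2 (adjusted p = 0.0367) passed and so did 44.4% of all genes. With the tumor number as a block as well, TGFBR1 (adjusted p = 0.00582), TGFB2 (0.0224) and ID1 (0.0458) passed and so did 55.8% of all genes. The share that passed grew over all genes as well. The median difference over the 10 genes, -0.23, lay beside -0.19 over all genes tested.

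ID1 was lower in the retaining cells of all 4 MNNG/HOS tumors, by -0.58, -0.48, -0.54 and -0.49 on the log2 scale. ID3 was lower in all 4 as well, by -0.44 to -0.14. Within tumors the difference of ID1 thus varied little, while its level had an SD of 0.32 over the 4 MNNG_High arrays. TGFBR1 had 9.37, 9.36, 9.86 and 9.39 in MNNG_Low, above all 4 MNNG_High arrays, and was lower in the retaining cells of every tumor, by -0.96 to -0.13. The 2 groups of TGFBR1 do not overlap, as was so for 29.8% of all genes. TGFBR2 was lower in all 4 tumors too, by -0.74 to -0.04, with a mean difference of -0.26 ± 0.20. That of ID3 was -0.27 ± 0.27. Both lie near the median over all genes tested, -0.19, whose quartiles were -0.43 and 0.21. How many of all genes were lower in all 4 tumors was not counted, so this trait is not shown to set these genes apart. TGFB1 differed by 0.01 ± 0.14 between the fractions, with a 95% interval of -0.28 to 0.30.

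Tag, hybridization controls and macrophage signal moved with this contrast. With the tag as a covariate, ID1 differed by -0.13, TGFBR1 by -0.38 and TGFB2 by -0.46. That fit sets the 4 MNNG_High arrays against the 1 MNNG_Low array that shares their tag, of tumor MNNG-1231. It therefore cannot show how much of the differences goes with the tag. Only tumor MNNG-1231 has both fractions under 1 tag, and there ID1 was -0.58 and TGFBR1 -0.42. Of 15 macrophage markers 14 were measured and 7 passed the filter. Their mean log2 signal was 5.34 to 5.78 in MNNG_High and 4.76 to 4.91 in MNNG_Low, and 4 of the 7 rose in the retaining cells. AIF1, a macrophage marker, averaged 9.76 and 7.42, while C1QC and PTPRC stayed below the filter value in both. The part of the tag, of the array differences seen in the hybridization controls and of macrophage RNA in these differences was not tested.

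In 143B tumors none of the 10 genes passed in limma, 1 had an unadjusted p under 0.05, and 1 of all 14418 genes (0.00694%) passed; 5.17% had an unadjusted p under 0.05. BMP2 was higher in the retaining cells by 0.69 ± 0.27 (95% interval 0.13 to 1.25, adjusted p = 0.879). The tumor numbers gave BMP2 differences of 0.65 in tumor 143B-1253, 0.81 in the pool 143B-51&52 and 0.37 in the pool 143B-54&55, each pool set against the mean of its 2 tumors. The second BMP2 probe set gave 0.13 ± 0.33. TGFBR1 was lower in the retaining cells in all 3 comparisons, by -0.49 to -0.23, and its groups do not overlap (9.62 to 9.75 against 9.87 to 10.19), as was so for 11.9% of all genes. By this probe set TGFBR1 was lower in the retaining cells of all 4 MNNG/HOS and all 3 143B comparisons, with mean differences of -0.51 ± 0.21 and -0.32 ± 0.22 that did not pass. The dimmer probe set 236561_at gave -0.23 ± 0.26 in MNNG/HOS and 0.0071 ± 0.27 in 143B, so the lower value in 143B was not seen with it. TGFBR2 went the other way in 143B, higher in all 3 comparisons by 0.07 to 0.20. How many of all genes went 1 way in all comparisons of a line was not counted.

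The contrast of retention between the lines was tested as a difference of differences. None of the 10 genes passed, 0 had an unadjusted p under 0.05 (10% of all genes did), and 1 of all genes (0.00694%) passed in limma. All 10 differences were above 0, from 0.19 to 0.74, with a median of 0.33. A value above 0 stands for a relatively higher signal in the retaining cells of 143B. Over all genes the median was 0.15, with quartiles of -0.13 and 0.34, and the share above 0 was not counted. After a further quantile normalization that median was -0.01, so the shift over all genes depended on scaling. The largest was that of BMP2, 0.74 ± 0.37 with a 95% interval of -0.05 to 1.52. ID1 gave 0.39 ± 0.33 and TGFBR2 0.41 ± 0.29.

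The lung arrays were set against the bone fractions of the same line. Of the 10 genes, 7 were lower than in MNNG_Low, where 87% of all genes passed, 51.9% lower and 35.1% higher. Against MNNG_High 6 were lower, where 82.4% passed, 47.6% lower and 34.8% higher. By the probe sets used for the genes, the receptors, the ID genes and SMAD7 fell against both. The dimmer TGFBR2 probe set 207334_s_at rose against MNNG_Low by 1.01 ± 0.25 and against MNNG_High by 0.77 ± 0.25. Its adjusted p in limma over probe sets was 0.000972 and 0.0085. The dimmer TGFBR1 probe set 236561_at passed against neither (adjusted p = 0.058 and 0.21). The falls of both receptors thus rest on their brighter probe sets. Groups did not overlap for the same numbers of the 10 genes, 7 and 6, and for 85.7% and 77.6% of all genes. TGFBR1 had 4.48 and 3.10 on the lung arrays and fell by 5.71 ± 0.26 against MNNG_Low (adjusted p = 4.62e-13). Both lung values lie below the filter value, whether they are above background was not tested, and the size of the fall rests on it. TGFBR2 had 5.84 and 6.65 and fell by 3.91 ± 0.25. ID1 had 8.34 and 8.01 and fell by 2.87 ± 0.28, and ID3 had 7.57 and 6.97 and fell by 1.77 ± 0.33. SMAD7 had 5.05 and 6.83 and fell by 2.80 ± 0.36. Against the same group ID2 fell by 3.91 ± 0.78, with 10.41 on one array and 5.30 on the other, so the 2 lung arrays differ by more than the group means do.

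By the probe sets used for the genes, the ligands TGFB1, BMP2 and BMP4 did not pass against either bone group with the values as deposited. Their calls depended on scaling, and that of TGFB1 also on the probe set. The dimmer TGFB1 probe set 203084_at was higher in lung than in MNNG_High by 0.61 ± 0.22 (adjusted p = 0.0193 over probe sets in limma). By its brighter probe set, TGFB1 had 8.59 and 8.23 in lung and differed from MNNG_Low by -0.16 ± 0.17. BMP4 had 8.65 and 8.50 and differed by -0.11 ± 0.16. TGFB2 fell by 1.07 ± 0.31 against MNNG_Low (adjusted p = 0.00395), and without the lung array of the animal of MNNG-1233 it differed by -0.46 (adjusted p = 0.211). BMP2 had 4.92 and 5.49 in lung, around the filter value like the MNNG/HOS bone arrays. A median shift of -0.64 over all genes lies under the comparison with MNNG_Low. It was -0.11 after a further quantile normalization, which turned TGFB1 to 1.52 and BMP4 to 1.65 higher in lung, and -1.05 after centring each array on its median, where TGFB1 (-0.54, adjusted p = 0.00667) and BMP4 (-0.49, adjusted p = 0.00966) were lower. No direction is therefore given for TGFB1 and BMP4 in lung. By its brighter probe set, BMP2 was lower than in MNNG_Low under both, by -0.84 (adjusted p = 0.0221) and -0.74 (adjusted p = 0.0387). With the values as deposited the other BMP2 probe set, 205289_at, went the other way, by 0.36 ± 0.39 (adjusted p = 0.389 over probe sets in limma). No direction is therefore given for BMP2 in lung either.

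Probe sets of 1 gene went apart on the lung arrays. For TGFBR1 the dimmer probe set 236561_at differed by -0.67 ± 0.32 against MNNG_Low, where the brighter 224793_s_at fell by 5.71, and for TGFBR2 the dimmer 207334_s_at rose by 1.01 ± 0.25. For TGFB2, 220406_at had 6.82 and 6.80 in lung and rose by 1.77 ± 0.16, while 228121_at fell. ID2's 201566_x_at had 8.38 and 8.53 and fell by 1.18 ± 0.30, without the gap between the arrays that 201565_s_at shows. Over the 16 probe sets tested, 8 fell and 2 rose against MNNG_Low, where 84.4% of all probe sets tested passed, 49.3% lower and 35.1% higher. The actin probe sets, the hybridization controls and the mean of the bone-cell markers described above moved with the lung arrays. So did markers of other cells: against MNNG_Low all 7 macrophage markers tested rose, as did 5 of 5 endothelial markers. The 14 macrophage markers measured had a mean of 6.75 and 6.78 on the lung arrays. Of 6 lung epithelium markers tested, 4 rose and 1 fell, and EPCAM averaged 8.67 in MNNG_Low and 4.94 in lung. The part of all these in the lung differences was not tested.

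**Figure D3:**
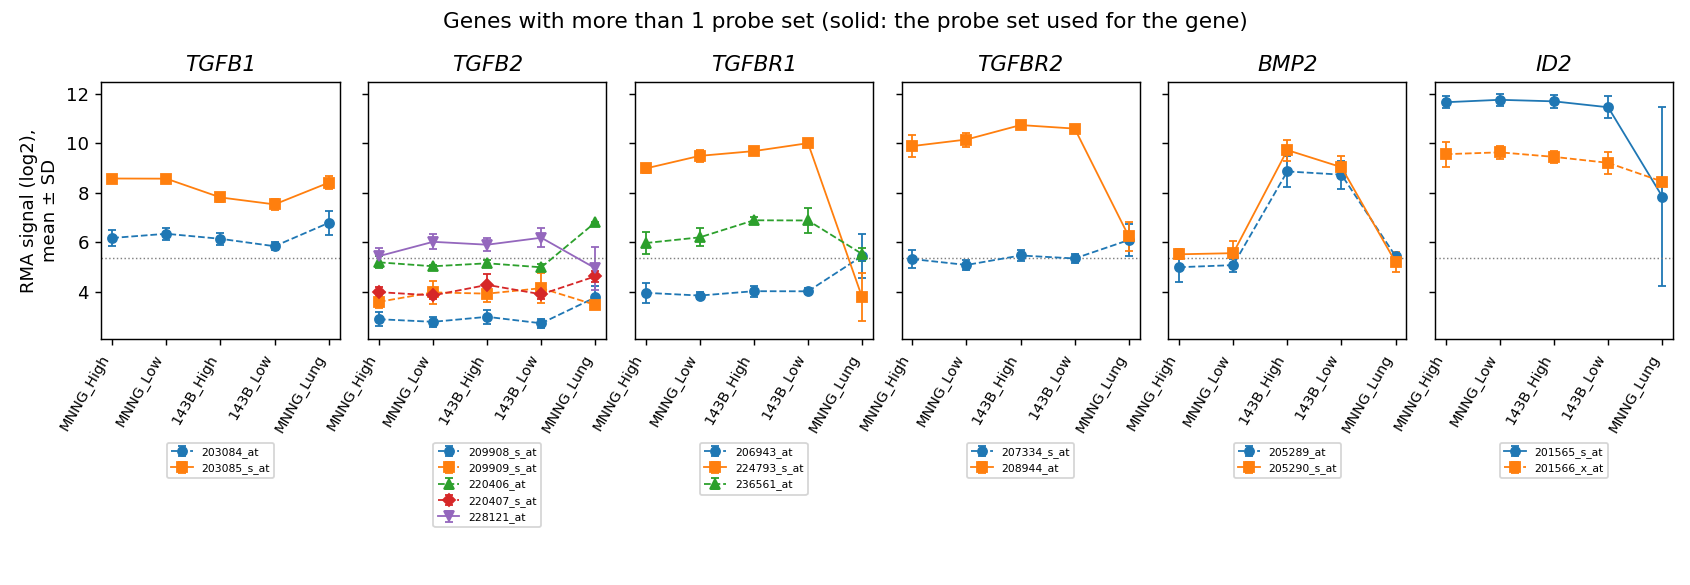
Group means ± SD of the RMA signal (log2 scale, vertical axis) for every probe set of the 6 genes that have more than 1; solid lines are the probe sets used for the genes and the dotted line is the filter value. The 2 BMP2 probe sets rise together in 143B, and the probe sets of TGFB1, TGFB2, TGFBR1, TGFBR2 and ID2 part on the lung arrays.

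The rest of the pathway was read from 113 other genes in 7 groups, of which 105 had a probe set and 93 passed the filter. Between the diluted cells of the lines 13 rose and 18 fell in 143B (14.4% and 14.5% of all genes did), and between the retaining cells 15 rose and 15 fell (21.4% and 14.7% of all genes did). Centring each array on its median gave 19 and 12 in the retaining cells and left the diluted cells at 13 and 18. A further quantile normalization gave 12 and 14 in the retaining cells and 13 and 12 in the diluted cells, so the split depended on scaling. SMAD1, which carries the BMP signal to the nucleus, was higher in 143B by 2.28 ± 0.39 in diluted and 2.63 ± 0.44 in retaining cells. SMAD9, its relative, was higher by 1.79 ± 0.30 and 1.86 ± 0.34. Of the 7 SMADs tested, 2 rose and 2 fell in diluted cells, and 2 rose and 0 fell in retaining cells. SMAD3, which carries the TGF-beta signal, fell by 0.57 ± 0.18 in diluted cells. The activin and BMP receptor ACVR2B was higher by 1.42 ± 0.22 and 1.95 ± 0.25. It was the 1 receptor of the 11 tested that rose in each fraction, and 3 fell in retaining cells.

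Of the 13 other ligands tested, 2 rose and 4 fell in each fraction. BMP6 was higher in 143B by 1.65 ± 0.23 and 1.38 ± 0.26 and BMP7 by 1.46 ± 0.19 and 1.55 ± 0.22. BMP7 has 4 probe sets, of which 3 rose in each fraction and 1 fell in retaining cells. GDF15, a distant family member released under stress, fell by 3.18 ± 0.29 and 2.90 ± 0.33. Among 20 extracellular regulators 5 rose and 5 fell in diluted cells and 4 rose and 4 fell in retaining cells. NOG, which encodes the BMP antagonist noggin, rose by 2.44 ± 0.30 and 2.69 ± 0.34, so a BMP antagonist and BMP2 were both higher in 143B. FSTL1, a secreted follistatin-like protein, rose by 1.92 ± 0.17 and 1.88 ± 0.20. GREM1, the antagonist gremlin, rose by 1.84 ± 0.38 in retaining cells. BGN, a matrix proteoglycan that binds TGF-beta, fell by 1.65 ± 0.30 and 1.87 ± 0.35.

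Of 14 TGF-beta response genes tested, 1 rose and 4 fell in diluted cells and 1 rose and 3 fell in retaining cells. COL1A1, the main collagen of bone, fell by 3.03 ± 0.74 and 3.23 ± 0.84 and FN1, fibronectin, by 1.58 ± 0.40 and 1.29 ± 0.46. SPHK1, a sphingosine kinase, rose by 0.85 ± 0.20 in retaining cells. Of 11 BMP response genes 1 rose and 2 fell in diluted cells and 3 rose and 1 fell in retaining cells. RUNX2, the osteoblast transcription factor, fell by 1.67 ± 0.21 and 1.44 ± 0.24, while ID1 and ID3 were higher. GATA2 rose by 0.79 ± 0.18 and 1.43 ± 0.20, and the homeobox genes DLX2 and MSX1 rose by 1.27 ± 0.20 and 1.07 ± 0.25 in retaining cells.

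**Figure D4:**
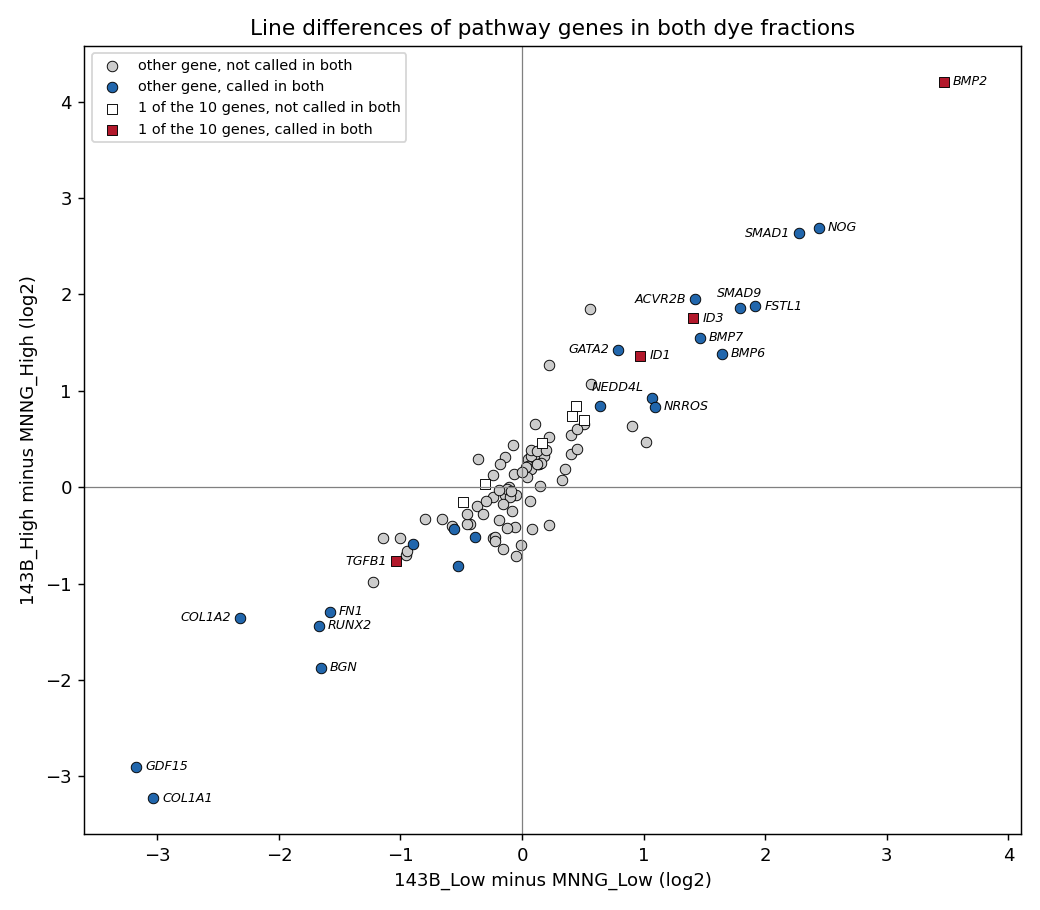
Difference of 143B minus MNNG/HOS on the log2 scale for the 10 genes (squares) and the other pathway genes tested (circles), in diluted cells (horizontal axis) and in retaining cells (vertical axis); filled symbols passed in both fractions. BMP2 lies farthest to the upper right, with NOG, SMAD1, FSTL1, SMAD9, ACVR2B and ID3 also at the upper right, and GDF15 and COL1A1 lie at the lower left.

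In MNNG/HOS tumors 11 of these 93 genes were higher and 4 lower in retaining cells, beside 10.6% and 15.5% of all genes. The higher ones were the ligands NODAL (0.80 ± 0.18), GDF5 (0.65 ± 0.14) and BMP5 (0.60 ± 0.18), the receptors ACVR1C, AMHR2 and ACVRL1, the regulators DCN, FST and LRRC32, and the BMP targets ATOH8 and HAMP. Their mean signals in MNNG_High were between 5.17 (BMP5) and 7.23 (FST). The lower ones were brighter: SMAD5 (-0.63 ± 0.20), a BMP signal carrier, ZFYVE16 (-0.68 ± 0.20) and MAP3K7 (-0.56 ± 0.18), which act inside the cell, and IL11 (-0.60 ± 0.22), a TGF-beta target. The split depended on scaling: it was 4 and 0 after a further quantile normalization and 7 and 10 after centring each array on its median, and over all genes 767 and 286, and 969 and 3731, in place of 1532 and 2229. In 143B tumors and in the difference between the lines 0 of the 93 passed in limma, with 6 and 8 at an unadjusted p under 0.05.

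In lung 26 of the 93 rose and 55 fell against MNNG_Low, where 35.1% and 51.9% of all genes did, or 35 and 45 after a further quantile normalization. Of the lists, 14 of 17 intracellular regulators, 10 of 14 TGF-beta response genes, 8 of 11 BMP response genes, 12 of 20 extracellular regulators and 4 of 7 SMADs fell. In the same order, 1, 2, 2, 8 and 1 rose. Of the 11 other receptors 4 rose and 4 fell. The lists were not tested against each other. SMAD1 fell by 4.24 ± 0.50 and SMAD5 by 4.18 ± 0.25. CCN2, a TGF-beta target that encodes a connective tissue growth factor, fell by 5.33 ± 0.34. Among the ligands, 8 of 13 rose and 3 fell. GDF5 rose by 2.40 ± 0.18 and NODAL by 1.90 ± 0.22, both of which were also higher in MNNG_High than in MNNG_Low, and GDF15 fell by 3.89 ± 0.38. The lung means of SMAD1 (4.02) and GDF15 (4.76) lie below the filter value.

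Genes whose signal ran most like that of a member over the 18 arrays were found by the mean absolute difference of log2 values, each gene centred on its own mean. For BMP2 these were MN1 (0.35), AGTR1 (0.37) and NAP1L2 (0.41). For ID1 they were UBXN8, WIPI1 and POLR2L (0.22 to 0.23), and for ID3 ARG2, PSMB8 and NAP1L5 (0.20 to 0.26). For TGFBR1 they were OSBPL10, CYCS and TMEM123 (0.13 to 0.16) and for TGFBR2 B3GALT6, RNF145 and PNRC2 (0.12 to 0.16). For TGFB1 they were SLC45A1, MAN1B1 and RASSF5 (0.14 to 0.15) and for TGFB2 ZNF239, SUSD6 and ITPR3-AS1 (0.16 to 0.17). For ID2 they were GADD45B, RPL9 and RPS24 (0.26 to 0.27) and for SMAD7 DRAM2, CTSA and TBL2 (0.21 to 0.22). No gene is given for BMP4, whose group means spanned less than 1. The lung arrays weigh on these matches: the group means of TGFBR1 spanned 6.22 with them and 1.02 without, and those of BMP2 spanned 4.52 and 4.21.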

How the data were processed

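The values are log2 signals of Affymetrix 3' expression arrays with 54675 probe sets, made by the authors with RMA, per the submitters' processing notes and the deposited table; RNA was amplified and labelled with biotin, per the labels' protocols. Of these probe sets 41097 had 1 gene in GEO's platform annotation, 1801 several and 11777 none. RMA usually brings arrays to a common distribution, but the medians of the deposited arrays ran from 5.26 to 5.66 and their spreads differed. Dim signals are compressed. No background call per probe set was used here. No depth applies, and the number of arrays limits the precision.

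A gene's value is its brightest probe set, kept where 3 or more of the 18 arrays reached 5.36, the table's median (14418 genes). limma 3.58.1 (R 4.3.3) fitted 5 group means to all 18 arrays, with Benjamini-Hochberg adjustment over all genes in each of 7 comparisons. A call is an adjusted p under 0.05, ± is the SE of a difference or the SD of a group, and all tests are two-sided. The fit was tested on simulated data. All 10 genes are named, as are all other pathway genes that passed between fractions. In the other comparisons, the pathway genes named were drawn from those that passed without overlap, up to 4 of largest difference per list. Not all of these are named. The 3 closest genes are given for each gene whose group means span more than 1. The genes and lists were chosen with earlier results of these data known.

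Same numbers mean the same tumor in both fractions. Deviations from group means correlated over genes at 0.494, 0.370, 0.299 and 0.579 in the 4 MNNG/HOS tumors, at 0.542 in tumor 143B-1253 and between -0.192 and 0.529 for the pools. Fractions of different tumors of a line gave -0.471 to 0.259. The highest of these was the pool 143B-54&55 with tumor 143B-1251, where the pool had 0.243 and 0.063 with its own tumors. The values thus bear out the pairing of the pools only in part. Promoters are from RefSeq (GRCh38.p14).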

Additional observations from a re-analysis of the deposited data

Results flagged for a closer look

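In 30 groups of 4 or 5 arrays tested, 3 held an array set apart from the others by more than Dixon's limit, where chance sets apart about 1 in 20. All 3 are in MNNG_Low. TGFBR1 had 9.86 on the array of tumor MNNG-1233, above the other arrays of its group. SMAD7 had 8.98 on the same array, again the highest. BMP2 had 4.83 on the array of tumor MNNG-1231, below the others and below the filter value. That array is the MNNG_Low array that carries the tag of the MNNG_High arrays. Without the array of tumor MNNG-1233, TGFBR1 differed between the diluted cells of the lines by 0.63 (adjusted p = 0.0369 in limma), in place of 0.51 (adjusted p = 0.0642).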

How the results depend on the processing

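For the 10 genes, leaving out probe sets ending in _x_at or _s_at, which left 6 of them, gave 3 calls in each of the 4 comparisons of lines and of lung with bone, and TGFB1 was then higher in lung than in MNNG_High by 0.61 (adjusted p = 0.0182). A further quantile normalization gave 10 calls for lung against MNNG_High, with TGFB1 higher in lung by 1.52 against MNNG_Low and 1.20 against MNNG_High and BMP4 by 1.65 against MNNG_Low. Centring arrays on their median called BMP2, TGFB1 and BMP4 lower in lung than in MNNG_Low. Between the MNNG/HOS fractions, centring arrays on their median gave 2 calls (TGFBR1 and ID1), leaving out the lung arrays 2 (TGFB2 and TGFBR1), and the tumor number as a replicate block without the lung arrays 3, with 8044 of all genes called. The block changed no other call of the 10 genes in 143B (0 calls) or in the difference of the lines (0 calls). Of the other pathway genes, 4 were called between the MNNG/HOS fractions after a further quantile normalization and 26 without the lung arrays; these 2 counts are of settings chosen after seeing the data.

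Leaving out 1 array at a time gave 0 to 2 calls between the MNNG/HOS fractions (2 without the MNNG_High array of MNNG-1235, TGFB2 and TGFBR1), 0 to 0 between those of 143B and in the difference, 5 to 6 in each line comparison and 6 to 7 in each lung comparison. The tag could not be fitted in line comparisons, nor the block in line or lung comparisons. With the tag as a covariate TGFB2 differed between lung and MNNG_Low by -0.95, in a fit that leaves 1 MNNG_Low array to that comparison. The cause of these changes was not tested. BMP2 kept its calls between the lines in each fit run, and ID1 and ID3 in each fit that kept their probe sets, which end in _s_at. The 2 lung arrays and signals near the filter value (BMP2 in MNNG/HOS, TGFB2, TGFBR1 in lung) limit what can be resolved.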
